A study of Mus musculus with 6 samples.

Results

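Polycomb repressive complex genes were examined in mouse germline stem cells (GS cells), a culture that keeps the activity of the stem cells of spermatogenesis. The 10 genes were Ezh1, Ezh2, Eed, Suz12, Jarid2, Cbx2, Cbx7, Ring1, Rnf2 and Bmi1, found by symbol among the 32285 gene rows of the count table, and all 10 matched 1 row each. All cells were of the wild-type DBA-GFP GS cell line, whose number of independent derivations the labels do not state. The control libraries (3) were made from complete medium and the pyruvate libraries (3) from medium named for 8 mM pyruvate; the labels do not give the other components of either medium. Nor do they state whether the replicates are independent cultures; every p-value here reflects the spread among these 6 libraries alone, which may be technical.

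Polycomb proteins work in a pair of complexes that keep developmental genes silent. Polycomb repressive complex 2 (PRC2) methylates a lysine of histone H3 through Ezh2 or its paralog Ezh1, which act only when bound to Eed and Suz12, while Jarid2 helps to bring the complex to chromatin. Polycomb repressive complex 1 (PRC1) attaches ubiquitin to histone H2A through Rnf2 or Ring1 paired with a partner such as Bmi1, and its Cbx subunits read the methyl mark left by PRC2. Hox genes are the classic targets, and in spermatogonia polycomb proteins are known for holding back somatic developmental genes.

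Ezh2 was the member that stood apart: its transcripts were lower in every pyruvate library than in every control library. Its close relative Ezh1 lay slightly higher in every pyruvate library, and the ratio of the 2 transcripts was lower in each of them than in any control. The remaining members lay within 1.21-fold of control, and 4 of them, Suz12, Jarid2, Rnf2 and Bmi1, overlapped between the groups. In the edgeR quasi-likelihood fit, Benjamini-Hochberg adjusted over 14912 tested genes, 0 of the 10 members passed at an adjusted p of 0.05, where 0.0536% of all tested genes did. At an unadjusted p under 0.05 the count was 1, Ezh2, against 14.4% of all tested genes. DESeq2 called 1 member, again Ezh2 (2.13% of all genes called), and limma-voom called 0 (0.0536% of all genes called).

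The promoters of Ezh2, Ezh1 and Suz12 are shown because the first 2 genes are the paralogs that lay in opposite directions, and the third, Suz12, is the other member whose window holds a form of the site read by E2F factors. Each window runs from 250 bases before to 30 bases after the RefSeq start site on GRCm38.p6, 5′ to 3′ on the gene's strand: chr6:47595001-47595280 (minus strand) for Ezh2, chr11:101226434-101226713 (minus strand) for Ezh1 and chr11:79992856-79993135 (plus strand) for Suz12. Capitals mark matches on either strand to TTTGGCGC or TTTCCCGC, the forms searched for E2F, a family of cell cycle factors, and to CCAAT, the box read by NF-Y (ATTGG on the other strand).
Ezh2: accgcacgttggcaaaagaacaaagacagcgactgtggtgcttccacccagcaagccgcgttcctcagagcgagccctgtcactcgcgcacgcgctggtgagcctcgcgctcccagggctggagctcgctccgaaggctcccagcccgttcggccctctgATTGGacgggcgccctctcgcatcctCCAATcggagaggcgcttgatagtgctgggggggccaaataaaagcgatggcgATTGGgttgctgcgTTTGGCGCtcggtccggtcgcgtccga
Ezh1: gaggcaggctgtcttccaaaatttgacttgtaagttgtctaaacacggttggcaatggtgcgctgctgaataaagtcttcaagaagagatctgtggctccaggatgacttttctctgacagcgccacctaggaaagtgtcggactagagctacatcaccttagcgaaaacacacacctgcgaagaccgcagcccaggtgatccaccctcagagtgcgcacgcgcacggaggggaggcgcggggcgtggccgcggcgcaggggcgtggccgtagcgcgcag
Suz12: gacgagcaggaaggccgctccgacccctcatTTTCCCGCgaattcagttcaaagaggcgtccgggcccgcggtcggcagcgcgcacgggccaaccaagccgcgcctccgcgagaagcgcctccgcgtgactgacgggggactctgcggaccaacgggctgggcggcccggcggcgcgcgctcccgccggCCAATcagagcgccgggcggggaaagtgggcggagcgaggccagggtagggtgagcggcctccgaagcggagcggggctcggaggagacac
The Ezh2 window held 1 match to TTTGGCGC, starting 4 bases into the transcript, and 3 CCAAT boxes. The Suz12 window held 1 match to TTTCCCGC and 1 CCAAT box, and the Ezh1 window held 0 of either motif. Of 32851 RefSeq windows of the same length, 1.46% held either E2F form, 36.1% held at least 1 CCAAT and 3.19% held 3 or more. In all, 9 of the 10 members matched the table, with 10 windows because Jarid2 has more than one start. These windows held 15 to 41 CG dinucleotides, against a median of 6 and an upper quartile of 19 over all windows. The lowest, that of Eed, lay below this quartile. A match describes the letters only.

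Library totals ran from 20918312 to 26413080 counts, and each member had at least 359 counts in every library. Counting error, 1 over the root of the mean count, was 1.10% to 5.22% of a member's level. The spread between libraries of a group was larger than that except in the controls for Cbx7 (0.748% against 2.55%), Ezh2 (1.34% against 1.80%) and Ezh1 (1.72% against 1.84%). Of 15 markers of germline stem cells all 15 were tested, and their summed level was 3981 to 4852 CPM in control and 3617 to 4226 CPM in pyruvate libraries. Levels are CPM, each library's counts divided by its total and scaled by edgeR's TMM factors. Markers of Sertoli, Leydig, endothelial and immune cells summed to at most 28.0 CPM for any of these 4 lists in any library. Fshr, Hsd3b1, Insl3 and Adgre1 were at 0 throughout. Others were present in every library: Sox9 (Sertoli) at 9.10 to 11.4 CPM, Pecam1 (endothelial) at 9.88 to 12.9 CPM and Star (Leydig) at 2.56 to 3.89 CPM. Fibroblast feeder markers summed to 403 to 466 CPM in control and 384 to 423 CPM in pyruvate libraries, mostly Fn1. Col1a1 came next, at 48.5 to 53.0 CPM in control and 57.6 to 82.0 CPM in pyruvate libraries, which did not overlap. Vim and Pdgfra lay at 10.6 to 15.5 CPM, while Lum and Dcn stayed under 0.69 CPM. With all libraries 0 markers passed the test. Without control replicate 2, 1 marker each passed in 3 lists, in a fit where 4.16% of all tested genes were called. Other members of those lists lay the other way. Zbtb16 rose among 15 stem cell markers (adjusted p = 0.00813, and 0.495 with all libraries, by edgeR), of which 7 lay below 0, Bcl6b among them (log2 -0.51). Sohlh2, of differentiating spermatogonia, fell (adjusted p = 0.0316, and 0.163 with all libraries, by edgeR), while Sohlh1 stood at log2 0.39. Thy1, listed with the fibroblast markers though germline stem cells also carry it, fell (adjusted p = 0.0189, and 0.124 with all libraries, by edgeR), while Col1a1 stood at log2 0.39. Markers of differentiating spermatogonia summed to 627 to 675 CPM in control and 513 to 670 CPM in pyruvate libraries. The part of these cell types in the members' differences was not tested. In bulk RNA fewer cells of a type and less RNA per cell cannot be told apart. Control replicate 2 lay apart from the other controls, at 36.5 on the first principal component against -4.12 and 0.81, and results that rest on it are given with and without it. In that library genes of low GC content read high: its log2 deviation from the mean library changed by -0.27 per 10 percentage points of GC. Pyruvate replicate 1 also lay apart from its group, at -27.2 on the first principal component against -1.42 and -4.64, with a GC change of 0.16. Among the pyruvate libraries it was lowest for Ezh2, Eed, Suz12, Jarid2, Rnf2 and Bmi1 and highest for Ezh1, Cbx2, Cbx7 and Ring1. It was thus the lowest or the highest of them for every member. It also had the lowest sum of stem cell markers there (3617 CPM) and the highest of differentiating spermatogonia markers (670 CPM).

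Among the catalytic subunits of PRC2, Ezh2 (ENSMUSG00000029687, chromosome 6, 47530139 to 47595341) had 134, 138 and 137 CPM in the controls, in the order of replicates 1, 2 and 3 used throughout. The pyruvate libraries had 90.7, 106 and 106 CPM. The groups were separated by a wide gap, and the 3 controls differed by less than the pyruvate libraries did. The means were 137 ± 1.82 and 100.6 ± 8.60 CPM (SD, n = 3 per group), 1.36-fold lower in pyruvate medium. The fitted log2 fold change, pyruvate minus control, was -0.44 (SE 0.084), with an unadjusted p of 0.000645 and an adjusted p of 0.110 by edgeR, and Ezh2 was the 86th gene in order of p.

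Ezh2 fell when control replicate 2 was left out (log2 -0.43, adjusted p = 0.0178 by edgeR), in a fit where 4.16% of all tested genes were called. With all libraries it also fell once each library's trend with GC content and transcript length was taken out (log2 -0.39, adjusted p = 0.0174 by edgeR, 3.95% of genes called). Ezh2 itself read alike in the 3 controls, and leaving out replicate 2 changed the SE of its fold change from 0.084 to 0.076. Leaving out any other library gave Ezh2 a log2 fold change between -0.48 and -0.37 and an adjusted p between 0.246 and 0.394 in edgeR, short of the threshold.

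**Figure D1:**
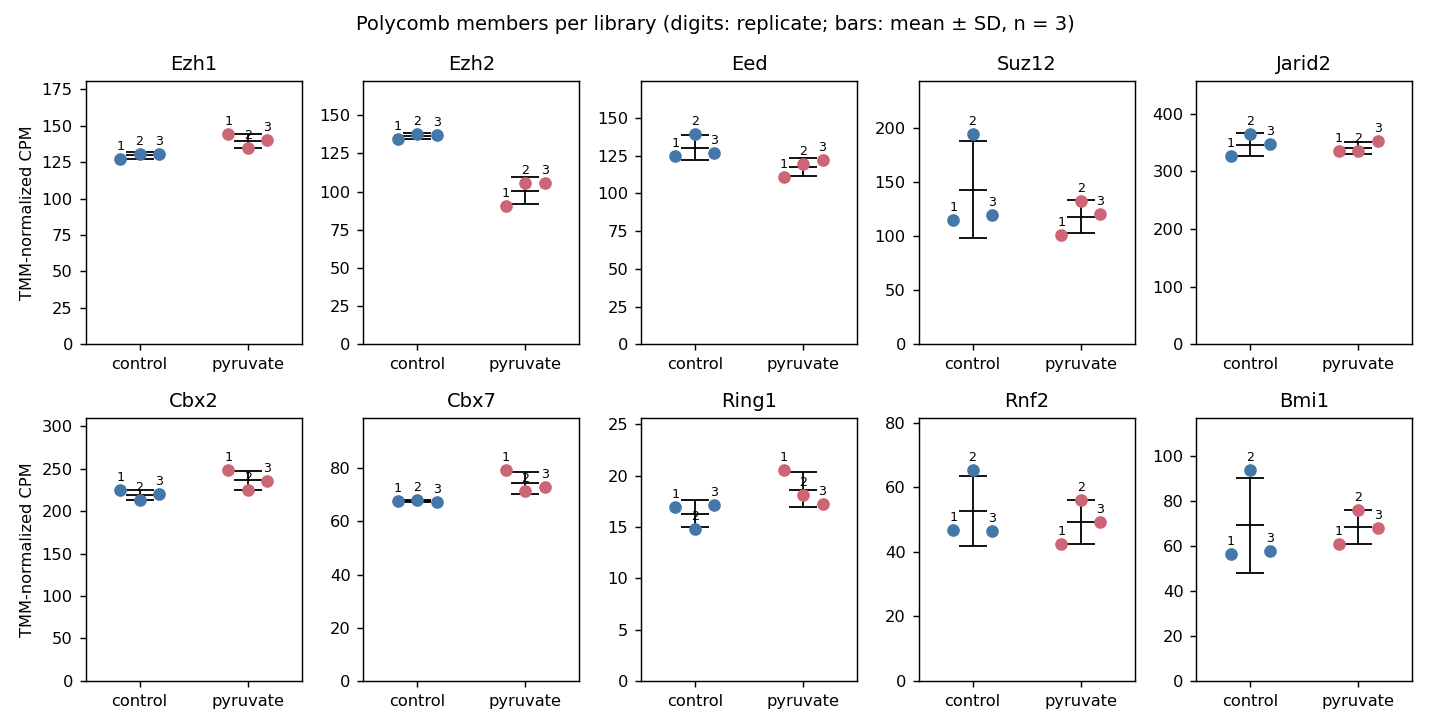
TMM-normalized CPM of each of the 10 members (vertical axes, each from 0) in control and pyruvate libraries; points are libraries numbered by replicate, and bars are the mean ± SD of 3 libraries. Ezh2 lies at 134 to 138 CPM in control and 90.7 to 106 CPM in pyruvate libraries, while control replicate 2 is the highest library for Suz12, Rnf2 and Bmi1.

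Ezh1 (ENSMUSG00000006920, chromosome 11, 101191115 to 101226463), the methyltransferase paralog best known from cells that have stopped dividing, had 127, 131 and 131 CPM in the controls. The pyruvate libraries had 145, 135 and 140 CPM, all above the highest control. The difference was small, 1.08-fold (log2 0.11, SE 0.069), and did not pass edgeR's test (adjusted p = 0.514). Without control replicate 2 it was 0.12 (adjusted p = 0.298).

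The log2 ratio of Ezh2 to Ezh1, taken within each library from counts per kilobase of exon, does not depend on how libraries are scaled. It was 0.24, 0.23 and 0.22 in the controls and -0.52, -0.20 and -0.25 in the pyruvate libraries. The controls agreed to within 0.014, and every pyruvate library lay below them. The agreement of the controls was closer than counting error in control allows for (1.80% for Ezh2 and 1.84% for Ezh1). It is therefore no measure of how tightly the ratio was held. The mean difference was -0.55, a ratio 1.47-fold lower in pyruvate medium. The exact two-sided permutation test gave p = 0.1, the smallest that 3 libraries against 3 allow, and 0.3 after Benjamini-Hochberg adjustment over the 3 paralog ratios computed. Ezh2 made up 54.0% ± 0.12 of the summed Ezh1 and Ezh2 transcripts in control and 44.5% ± 2.93 in pyruvate libraries (SD, n = 3 per group). Which paralog was the more abundant in pyruvate medium depended on the gene length used. With the longest annotated transcript in place of all exons, the log2 ratio was -0.079, 0.24 and 0.19 in the pyruvate libraries, so that Ezh2 was above Ezh1 in 2 of 3; the difference between the media is the same with either length.

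**Figure D2:**
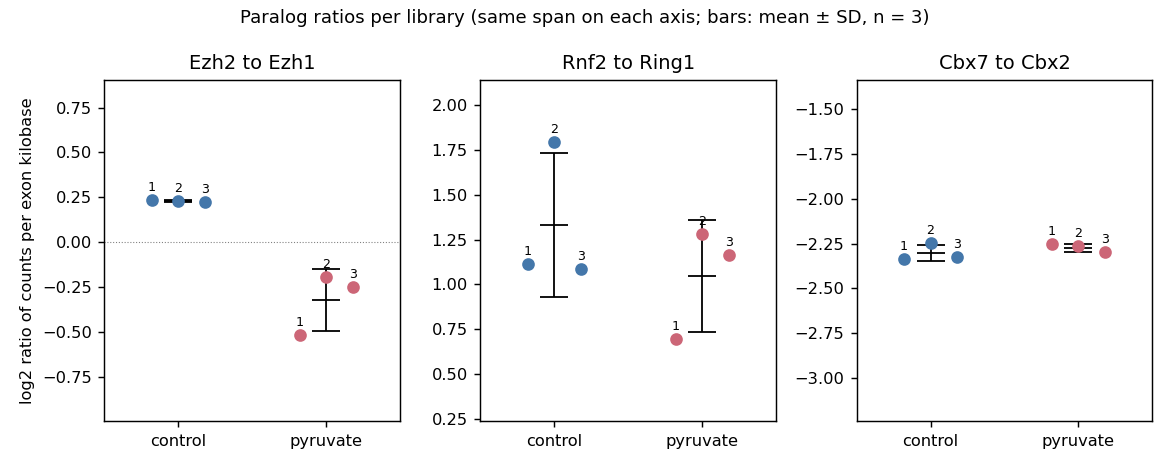
Log2 ratio of counts per exon kilobase for 3 pairs of paralogs (vertical axes, equal spans) in control and pyruvate libraries; points are libraries numbered by replicate, and bars are the mean ± SD of 3 libraries. The ratio of Ezh2 to Ezh1 is 0.22 to 0.24 in controls and -0.52 to -0.20 in pyruvate libraries, while the other pairs overlap between the groups.

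Eed and Suz12, the subunits without which the PRC2 enzyme is inactive, did not pass the test. Eed (ENSMUSG00000030619, chromosome 7, 89954654 to 89980983), which binds the methyl mark and stimulates the enzyme, had 125, 140 and 127 CPM in control and 111, 120 and 122 CPM in pyruvate libraries. The groups did not overlap, but the lowest control lay close to the highest pyruvate library. The log2 fold change was -0.15 (SE 0.080, adjusted p = 0.431 by edgeR) and -0.10 without control replicate 2. Suz12 (ENSMUSG00000017548, chromosome 11, 79993106 to 80034123), the scaffold on which PRC2 assembles, had 115, 195 and 119 CPM in control and 101.2, 132 and 121 CPM in pyruvate libraries. Control replicate 2 alone was far above the rest. The log2 fold change of -0.28 (SE 0.20, adjusted p = 0.570 by edgeR) became 0.010 (adjusted p = 0.964) without that library.

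Jarid2 (ENSMUSG00000038518, chromosome 13, 44729474 to 44921643), the accessory subunit that recruits PRC2, was the member with the most counts. It had 326, 365 and 347 CPM in control and 334, 335 and 352 CPM in pyruvate libraries, which lay inside the range of the controls. Its log2 fold change was -0.023 (SE 0.072, adjusted p = 0.907 by edgeR), and 0.018 without control replicate 2.

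The ubiquitin ligases of PRC1 did not pass either. Rnf2 (ENSMUSG00000026484, chromosome 1, 151458004 to 151500955), also called Ring1B and the main ligase in embryonic stem cells, had 46.6, 65.2 and 46.4 CPM in control and 42.3, 56.1 and 49.3 CPM in pyruvate libraries. As for Suz12, control replicate 2 was the highest library. The log2 fold change was -0.10 (SE 0.16, adjusted p = 0.807 by edgeR) with all libraries and 0.082 (adjusted p = 0.704) without control replicate 2. Ring1 (ENSMUSG00000024325, chromosome 17, 34020792 to 34024680), its paralog, had 16.9, 14.8 and 17.1 CPM in control and 20.5, 18.1 and 17.3 CPM in pyruvate libraries. Here control replicate 2 was the lowest library, and the groups were separated by a narrow margin. The log2 fold change of Ring1 was 0.20 (SE 0.11, adjusted p = 0.463 by edgeR), and 0.13 without control replicate 2. The log2 ratio of Rnf2 to Ring1 ranged from 1.09 to 1.80 in control and from 0.70 to 1.28 in pyruvate libraries, and overlapped (exact permutation p = 0.6, and 0.6 after adjustment).

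Bmi1 (ENSMUSG00000026739, chromosome 2, 18677018 to 18686629), the partner that stimulates the ligases in canonical PRC1 and supports stem cell self-renewal, had 56.2, 93.6 and 57.9 CPM in control and 61.0, 76.0 and 68.1 CPM in pyruvate libraries. Control replicate 2 lay above every pyruvate library and the other controls below them. The log2 fold change was therefore -0.020 (SE 0.19, adjusted p = 0.970 by edgeR) with all libraries and 0.26 (SE 0.093, adjusted p = 0.142) without control replicate 2. With that library left out and the GC and length trend removed as well, Bmi1 rose (log2 0.24, adjusted p = 0.0239 by edgeR) and Ezh2 fell (log2 -0.43, adjusted p = 0.00137). These were 2 of the 10 members, in a fit that called 9.91% of all tested genes. Of the 50-base windows of the longest Bmi1 transcript, 18.5% also occur in processed pseudogenes, neither of which has a row in the table, so the Bmi1 count is uncertain to that extent; the other 9 members shared 0 such windows with another annotated gene.

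Both chromodomain members lay slightly higher in pyruvate medium. Cbx2 (ENSMUSG00000025577, chromosome 11, 119022962 to 119031270), which compacts chromatin and is needed for testis development, had 224, 213 and 221 CPM in control and 248, 225 and 235 CPM in pyruvate libraries. The margin between the highest control and the lowest pyruvate library was under 1 CPM, and with DESeq2's size factors or upper-quartile scaling the groups overlapped. The log2 fold change of Cbx2 was 0.11 (SE 0.071, adjusted p = 0.527 by edgeR). Cbx7 (ENSMUSG00000053411, chromosome 15, 79915807 to 79971119), the chromodomain subunit typical of self-renewing cells, had 67.8, 68.1 and 67.1 CPM in control and 79.2, 71.4 and 72.9 CPM in pyruvate libraries, with the highest value in pyruvate replicate 1. Its log2 fold change was 0.14 (SE 0.078, adjusted p = 0.460 by edgeR). The log2 ratio of Cbx7 to Cbx2 differed by 0.030 between the media and overlapped (exact permutation p = 0.4, and 0.6 after adjustment).

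Counted over the members, the groups did not overlap for 6 of 10, where 22.5% of all tested genes did not overlap. Ezh1, Cbx2, Cbx7 and Ring1 lay higher in pyruvate medium, 4 of 10 against 11.9% of all genes, and Ezh2 and Eed lower, 2 of 10 against 10.6%. The direction was thus mixed, and the median log2 fold change of the members was -0.021, against -0.010 over all tested genes. With DESeq2's size factors or upper-quartile scaling the count was 5, since Cbx2 overlapped, against 22.4% and 21.5% of all tested genes. Ezh1, Cbx2, Cbx7 and Ring1 are also the members of highest GC content, at 51.25%, 57.55%, 56.45% and 56.86%. With the GC and length trend removed from all 6 libraries their log2 fold changes were smaller, at 0.063, 0.031, 0.068 and 0.13. Without control replicate 2 the members' median was 0.084, with 8 of 10 above 0, against 0.012 over all genes; with the trend removed as well 6 of 10 lay above 0. Exons of Ezh2, Eed, Suz12, Cbx7 and Rnf2 overlap a gene annotated on the opposite strand over 1.54% to 6.82% of their exon length. No source used here gives the strand setting of the counting, and these counts are uncertain to that extent.

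**Figure D3:**
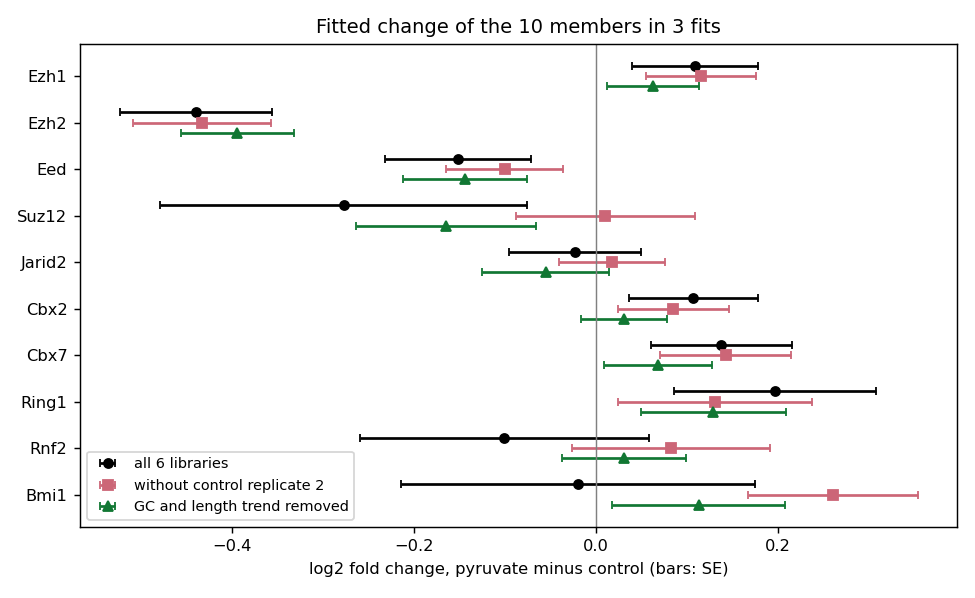
Fitted log2 fold change, pyruvate minus control (horizontal axis), of the 10 members with all 6 libraries, without control replicate 2, and with the GC and length trend removed; bars are SE. Ezh2 lies between -0.44 and -0.39 in the 3 fits, while Suz12, Jarid2, Rnf2 and Bmi1 move from below 0 to above 0 when control replicate 2 is left out.

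The members that moved most with control replicate 2 were those of lowest GC content. Jarid2, at 48.8% GC, also crossed 0 without that library, from log2 -0.023 to 0.018. Rnf2, Bmi1 and Suz12 have 39.5%, 40.2% and 41.6% GC in their longest transcript, and control replicate 2 read 1.40-fold, 1.64-fold and 1.66-fold above the mean of the other controls for them. Ezh2, at 44.4% GC, read 0.022 above on the log2 scale, and Ring1, at 56.9%, read 0.867 times that mean. Across the 10 members, GC content and the height of control replicate 2 had a Pearson r of -0.85 and a Spearman rho of -0.90. Over all 14908 tested genes with a GC value these were -0.51 and -0.53. These are correlations across genes of the same libraries, which are not independent replicates. The part of base composition in the members' differences was not tested beyond the trend removal given above.

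**Figure D4:**
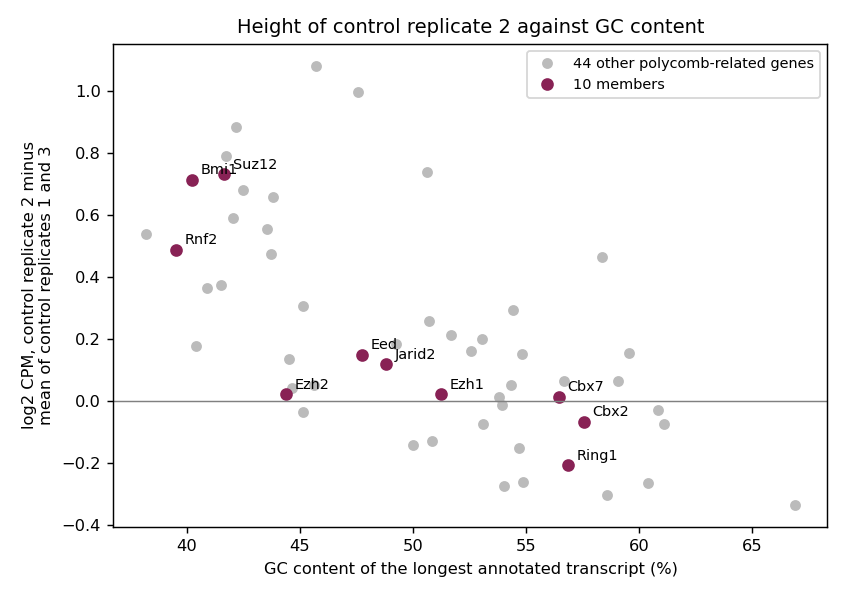
Height of control replicate 2 above the mean of control replicates 1 and 3 on the log2 CPM scale (vertical axis) against the GC content of the longest transcript (horizontal axis) for the 10 members, labelled, and 44 other polycomb-related genes. Rnf2, Bmi1 and Suz12 lie at 0.49 to 0.73 at the low GC end, and Ring1 at -0.21 at the high end.

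Levels of different genes were compared as CPM per kilobase of all annotated exons, averaged over the 6 libraries. Cbx2 was highest at 53.5, followed by Jarid2 at 35.3, Eed at 32.4 and Suz12 at 26.4. Ezh1, Ezh2 and Bmi1 came next at 18.1, 17.8 and 17.3, then Rnf2 at 12.4, Cbx7 at 10.96 and Ring1 at 5.38. Cbx2 lay above Jarid2, Suz12 above Ezh1 and Cbx7 above Ring1 with no overlap of the libraries' ranges, and all other neighbours in this order overlapped. The order depended on the length used. Per kilobase of the longest annotated transcript Eed and Cbx2 stood level at 59.97 and 59.8, Ezh2 at 42.5 and Jarid2 at 41.1 overlapped, and Ezh1 at 32.0 and Suz12 at 29.9 overlapped. Cbx2 above Jarid2 and Cbx7 above Ring1 had no overlap with either length. Among the readers Cbx2 thus led Cbx7, and among the ligases Rnf2 led Ring1, in every library of both media. Within control Ezh2 ran from 20.1 to 20.7 and Ezh1 from 17.1 to 17.6, and within pyruvate medium Ezh2 ran from 13.6 to 15.8 and Ezh1 from 18.1 to 19.4, in the same unit.

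A further 44 genes of the polycomb system were read from the same fit, all of them tested. They include the 10 genes described below that oppose polycomb silencing. Over all genes 0 of the 44 passed edgeR's test and 0 passed limma-voom or DESeq2; 4 had an unadjusted p under 0.05, a smaller share than the 14.4% of all tested genes. Their median log2 fold change was -0.028 and 21 lay above 0. The groups did not overlap for 9 of the 44, where 22.5% of all tested genes did not overlap. Without control replicate 2, 3 of 44 passed (4.16% of all genes): Epop and Pcgf2 fell (1.82% of all genes fell) and Lcor rose (2.33% rose). With the trend removed from all 6 libraries, Epop and Pcgf2 fell (adjusted p = 0.0224 and 0.0443 by edgeR) and Lcor did not pass (adjusted p = 0.173).

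Of 8 other PRC2 subunits, Epop, which links PRC2 to elongin and is best known from pluripotent cells, had 119, 86.8 and 100.5 CPM in control and 85.6, 77.6 and 87.1 CPM in pyruvate libraries. Control replicate 2 fell among the pyruvate values, and without it the log2 fold change was -0.40 (adjusted p = 0.0330 by edgeR). Lcor, whose locus encodes a PRC2 accessory isoform, had 140, 225 and 160 CPM in control and 182, 181 and 204 CPM in pyruvate libraries. Its log2 fold change was 0.11 with all libraries and 0.34 without control replicate 2 (adjusted p = 0.0444 by edgeR), and that replicate was its highest library. Phf1 and Rbbp4 were chosen after their values were seen. Phf1, an accessory subunit that reads a methyl mark of active genes, had 47.0, 37.2 and 44.8 CPM in control and 56.8, 51.1 and 54.5 CPM in pyruvate libraries, which did not overlap (log2 0.33, adjusted p = 0.225 by edgeR, and 0.119 without control replicate 2). Rbbp4, a histone-binding subunit that PRC2 shares with other chromatin complexes, had 431, 410 and 410 CPM in control and 378, 369 and 372 CPM in pyruvate libraries, which did not overlap (log2 -0.16, adjusted p = 0.321 by edgeR).

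The PRC1 relatives showed small differences. Pcgf2, the closest paralog of Bmi1, had 144, 119 and 145 CPM in control and 119, 120 and 117 CPM in pyruvate libraries. Control replicate 2 again fell among the pyruvate values, and without it the log2 fold change was -0.28 (adjusted p = 0.0288 by edgeR). The chromodomain genes Cbx6 and Cbx8 stood at log2 -0.13 and 0.21 (adjusted p = 0.528 and 0.417 by edgeR). Of the polyhomeotic and Scm genes, Scmh1, Scml2 and Phc3 stood at -0.056, -0.064 and -0.082, and 0 of 5 separated the groups. Scml2, a PRC1 partner prominent in male germ cells, had 323 to 424 CPM in control and 324 to 357 CPM in pyruvate libraries. Among 13 variant PRC1 genes, Yaf2, which takes the place of the Cbx subunit, had 31.0, 31.3 and 29.4 CPM in control and 24.98, 26.6 and 27.3 CPM in pyruvate libraries. Its log2 fold change was -0.22 (adjusted p = 0.304 by edgeR), and E2f6 and Bcorl1 stood at 0.18 and -0.16 (adjusted p = 0.391 and 0.419).

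Genes whose products oppose polycomb silencing, part of the 44 above, were read beside the members. Of 10 such genes 0 passed, and the median log2 fold change was 0.049 with all libraries, with 6 above 0. The median was 0.15 and all 10 lay above 0 without control replicate 2. With the trend removed the median was -0.035, and with the trend removed and without that library 6 of 10 lay below 0, so the list's direction turned with the setting. Kmt2d, Kmt2b and Bap1, a pair of activating methyltransferases and the histone H2A deubiquitinase, stood at 0.15, 0.073 and 0.067 (adjusted p = 0.679, 0.684 and 0.692 by edgeR).

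Hox genes, which specify position along the body axis, lay mostly lower in pyruvate medium. Of 39 Hox genes 22 passed the filter on low counts; 21 of these had a log2 fold change below 0 and Hoxd8 lay above it (0.43). The median was -0.57, against -0.010 over all tested genes, and 16 of 22 lay lower with no overlap, where 10.6% of all tested genes did. With all libraries 0 Hox genes passed edgeR's test (0.0536% of all tested genes did). An unadjusted p under 0.05 was reached by 16 of the 22, against 14.4% of all tested genes. The Hoxb and Hoxc clusters differed by like amounts: 10 of 10 Hoxb genes lay below 0 with a median of -0.57, all separated, and 9 of 9 Hoxc genes with a median of -0.60, 6 of them separated. Without control replicate 2, 9 Hox genes fell (1.82% of all genes fell in that fit), and these were Hoxb genes; 0 of 9 Hoxc genes passed edgeR's test there, the medians of both clusters were -0.66, and a difference between the clusters was not tested. Hoxb9 had 95.1, 86.9 and 94.98 CPM in control and 45.6, 57.7 and 58.6 CPM in pyruvate libraries (log2 -0.77, adjusted p = 0.0673 with all libraries and 0.00430 without control replicate 2, by edgeR). The Hoxa and Hoxd clusters had 2 and 1 genes tested, and their summed levels were at most 2.83 and 1.82 CPM in any library. Other Hoxb genes that fell without control replicate 2 were Hoxb1, Hoxb2, Hoxb4, Hoxb5, Hoxb6, Hoxb7, Hoxb8 and Hoxb13, with log2 fold changes of -1.17 to -0.39. Exons of Hoxb2 and Hoxb5 overlap antisense genes, which makes both counts uncertain.

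Of 20 other textbook targets 8 passed the filter, and 0 passed the test. Eomes, Foxa2 and Lhx5, developmental transcription factors, stood at log2 -0.72, -0.38 and -0.85 (adjusted p = 0.167, 0.234 and 0.248 by edgeR), all under 10 CPM. Eomes fell with the GC and length trend removed (adjusted p = 0.0443 by edgeR), in a fit that called 3.95% of all tested genes. It did not pass without control replicate 2 (adjusted p = 0.0615 by edgeR). With both changes it passed (adjusted p = 0.0255 by edgeR), where 9.91% of all tested genes were called. Cdkn2a, the cell cycle inhibitor locus that Bmi1 and Cbx7 are known to repress, was chosen after its values were seen. It had 57.2, 43.2 and 53.7 CPM in control and 57.4, 51.7 and 53.4 CPM in pyruvate libraries (log2 0.077, SE 0.12, adjusted p = 0.793 by edgeR), and the groups overlapped.

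**Figure D5:**
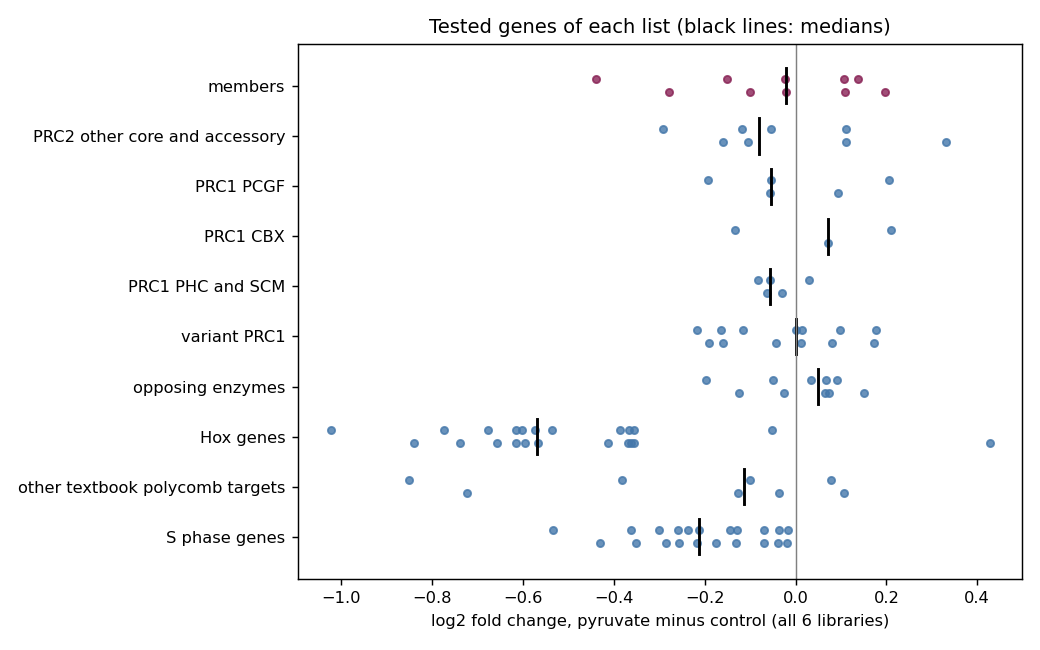
Log2 fold change, pyruvate minus control, of every tested gene in the members and 9 other lists (points, horizontal axis), with the median of each list as a black line. The members spread from -0.44 to 0.20 around a median of -0.021, while 21 of 22 Hox genes and 21 of 21 S phase genes lie below 0.

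Ezh2 is a known E2F target whose transcript follows the division of cells, and genes of DNA replication also lay lower in the pyruvate libraries. Of 21 S phase genes, a list added with earlier results known, 21 lay below 0 with a median of -0.21; 13 lay lower with no overlap (10.6% of all tested genes did). In edgeR's test over all genes 0 passed, and 10 had an unadjusted p under 0.05 (14.4% of all genes). Their summed level was 5142 to 5402 CPM in control and 4523 to 4881 CPM in pyruvate libraries. Without control replicate 2, 4 of them fell (1.82% of all genes fell): Rrm2, Ccne1, Prim1 and Uhrf1 (log2 -0.49, -0.40, -0.35 and -0.32). Rrm2, a ribonucleotide reductase subunit, had 141, 154 and 141 CPM in control and 84.0, 110 and 108 CPM in pyruvate libraries, with pyruvate replicate 1 lowest as for Ezh2. The part of cell division in the Ezh2 difference was not tested.

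Over the 6 libraries the genes whose log2 CPM followed Ezh2 most closely, among 10419 of at least 5 CPM, were Pbx3, Sox2 and Strap, with Pearson r of 0.998, 0.995 and 0.995. Pbx3 had 28.4, 28.8 and 28.6 CPM in control and 18.3, 20.99 and 21.2 CPM in pyruvate libraries. An r over 0.95 was reached by 146 of these 10419 genes. Pbx3, Sox2 and Strap, like Ezh2, were lower in every pyruvate library than in every control. Their r values therefore largely restate the difference between the media. For Rnf2 the closest were Ptbp3, Zfp936 and Dr1, each at r of 0.996, and 563 genes passed 0.95; all 3 were highest in control replicate 2, as Rnf2 was.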

How the data were processed

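RNA for 6 libraries of cultured germline stem cells, 3 per medium, was sequenced after stranded mRNA library preparation, per the labels' protocols. The table deposited by the authors holds raw counts, 1 whole number per gene and library. The submitters' processing notes name HTSeq 2.0.5, STAR 2.7.11a, cutadapt 4.6, bcl2fastq 2.20 and the mm10 build. Annotation release and strand setting of counting were not given in the sources used here. Another 3 columns belong to no sample analysed here and were not read. A gene symbol was found for 32158 of the 32285 identifiers.

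Testing used edgeR 4.0.16 under R 4.3.3: filterByExpr with a minimum count of 10 left 14912 genes, scaled by TMM and tested with the robust quasi-likelihood test without covariates, adjusted by Benjamini-Hochberg over all of them. Levels are TMM-normalized CPM; log2 CPM used a prior count of 2. Each SE is the log2 fold change over the root of its F statistic. Positions, exon lengths, GC content and overlaps came from GENCODE M21 on GRCm38, the same assembly as mm10, and promoters from RefSeq on GRCm38.p6. Library pairs within a group differed by more than sampling noise (chi-square per gene of 3.07 to 46.8). The fitting steps were also run on simulated counts, which carried no GC trend of single libraries, so that run does not cover such a trend.

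The members and lists were chosen with earlier results of these data known. Named were all 10 members, list genes past the test with all libraries or without control replicate 2, otherwise the 3 of lowest p, and the 3 genes most like Ezh2 and Rnf2; for marker lists, the most abundant genes or those at or near 0. Hoxd8 is named as the exception to a count, and Bcl6b, Sohlh1 and Col1a1 as markers that lay the other way, all with their values in view, as were the genes marked so in the text. A gene that this rule names is not reported here. Alternatives were other scalings (upper quartile, library totals, size factors of DESeq2), no filter or 5 CPM in 3 libraries, DESeq2 1.42.0, limma-voom (limma 3.58.1), a replicate block and leaving out each library. A further alternative, chosen after seeing the data, took out of each library a spline (5 degrees of freedom each) on GC content and on transcript length, with or without control replicate 2. Levels per kilobase of the longest transcript were also added then.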

Additional observations from a re-analysis of the deposited data

How the results depend on the processing

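Ezh2 lay below 0 in all 16 alternatives (log2 -0.48 to -0.37), as did Eed; Ezh1, Cbx2, Cbx7 and Ring1 lay above 0 in all 16. The number of members called, 0 with all libraries, was 1 with DESeq2, with the replicate block and with the trend removed (Ezh2 each time). These fits called 2.13%, 1.78% and 3.95% of all tested genes. It was 2 with the trend removed and without control replicate 2 (9.91% of all tested genes). Over the leave-one-out fits it was 0 to 1 (0.00% to 4.16% of all tested genes). Of the 44 related genes 2 were called with the trend removed, against 3.95% of all tested genes. With the trend removed and without control replicate 2 the count was 7, against 9.91% of all tested genes. Over the leave-one-out fits 0 to 3 were called, against 0.00% to 4.16% of all tested genes. Over all genes the count of 8 became 14 with library totals, 15 with the upper quartile, 83 with no filter, 317 with DESeq2, 265 with the replicate block, 589 with the trend removed and 1490 with the trend removed and without control replicate 2; it was 0 to 625 when single libraries were left out, the 625 came without control replicate 2, and leaving out control replicate 1, control replicate 3 or pyruvate replicate 1 gave 3, 1 and 1. Leaving out pyruvate replicate 2 or 3 gave 0 in edgeR, with 1605 and 1661 genes at an unadjusted p under 0.05. Leaving out control replicate 2 also removes the library that differed most from its group; the cause of the other shifts was not tested.

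Directions turned in some alternatives for Bmi1, Rnf2, Jarid2 and Suz12, and so not only for members near 0. Bmi1, at -0.020, was 0.017 with library totals, 0.0017 with the upper quartile, 0.0098 with limma-voom, 0.013 with the replicate block, 0.11 with the trend removed, 0.24 with the trend removed and without control replicate 2, and -0.15 to 0.26 over the leave-one-out fits. Rnf2, at -0.10, was 0.031 with the trend removed, 0.073 with the trend removed and without control replicate 2, and -0.21 to 0.082 over the leave-one-out fits (0.0041 without pyruvate replicate 1). Jarid2, at -0.023, was 0.0087 with library totals and -0.063 to 0.018 over the leave-one-out fits (0.018 without control replicate 2), and -0.13 (adjusted p = 0.0902 by edgeR) with the trend removed and without control replicate 2. Suz12, at -0.28, was -0.41 to 0.010 over the leave-one-out fits, -0.17 with the trend removed and -0.032 with the trend removed and without control replicate 2. The 3 paralog ratios kept their direction in every alternative run, with Ezh2 to Ezh1 at -0.61 to -0.45 over the leave-one-out values; Rnf2 to Ring1, at -0.29, was -0.054 without control replicate 2.

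Replicate numbers are shared by the groups, but the labels do not say that they pair libraries. Deviations of same-numbered libraries from their group means correlated at 0.31, 0.31 and -0.073, and control replicate 3 correlated best with pyruvate replicate 1, so the numbers were not taken as pairs; with the replicate block Ezh2 reached adjusted p = 0.0303 in edgeR and 265 genes (1.78%) and 1 member were called. Depth limits the least counted member, Ring1 (359 to 515 counts per library), whose counting error of 5.22% in control stands beside a spread of 8.06%, and the controls of Cbx7, Ezh2 and Ezh1, whose spread was under their counting error.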
